A study of Mus musculus with 6 samples.

Results

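Liver expression of 10 genes of innate immune sensing was examined in aged male mice fed with or without polypropylene microplastic. The genes were taken by symbol from the deposited count table of 56674 rows, and all 10 were found there once. They encode the receptors and co-receptors of the Toll-like receptor system (Tlr2, Tlr4, Cd14, Ly96), its adaptor (Myd88), the NF-κB precursor and its inhibitors (Nfkb1, Nfkbia, Tnfaip3), the cytokine Tnf and the inflammasome sensor Nlrp3. Every library came from the liver of male mice of the inbred strain C57BL/6, aged 71 weeks. The control group received normal chow (3 libraries) and the other group chow with polypropylene microplastic, abbreviated PP-MP (3 libraries). The sources used here do not state the dose, the size of the particles or how long they were fed. The protocol field of every sample, controls included, reads PS-MP, so the groups follow titles and characteristics. The labels do not say whether each library is a separate animal, so p-values measure the spread between these libraries, which may be technical.

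Toll-like receptors recognise microbial molecules and, for some members, products of damaged tissue. TLR4 binds lipopolysaccharide only together with MD-2 (the product of Ly96), and CD14 hands the ligand over; TLR2 senses bacterial lipoproteins. Both receptors signal through MyD88 to a kinase cascade that destroys IκBα (Nfkbia) and frees NF-κB, of which p50 is cut from the Nfkb1 product. NF-κB then induces its own brakes, Nfkbia and Tnfaip3 (A20), as well as Tnf and Nlrp3. In liver the receptors are best known on Kupffer cells, the resident macrophages that filter gut-derived products from portal blood, although hepatocytes, endothelial and stellate cells also carry parts of the system.

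Total counts ranged from 68357478 to 112566641 per library. Genes with at least 1 read numbered 23095 to 23872 in the controls and 25009 to 25914 in the PP-MP libraries. The cause of this difference was not tested. Levels are given as CPM, counts scaled by library total and TMM factor, and differences as log2 fold changes of PP-MP over control from an edgeR quasi-likelihood fit over 18284 genes. Across that fit, 0.0109% of genes passed an adjusted p of 0.05, in either direction. Of the 10 genes 0 passed it, and 0 passed with DESeq2 (2.39% of genes were higher with DESeq2) or with limma-voom. All 10 had a fitted value above 0, as did 52.6% of all genes tested. The median log2 fold change of the 10 was 0.94, against 0.03 for all genes tested. At an unadjusted p of 0.05, 4 of the 10 were higher (Cd14, Tnfaip3, Tnf and Tlr2), against 8.05% of all genes that were higher at this p. That count was 0 without PP-MP 1, where 5.77% of all genes were higher, and 0 without control 2, where 13% were. It was 4 without PP-MP 3, where 7.31% were, and 1 or 2 with 1 of the other libraries left out. Every PP-MP library exceeded every control library for 3 of the 10 (Nfkb1, Tnfaip3 and Tnf), against 12.2% of all genes.

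Fitted differences varied in size among the 10 genes. Tlr2, Tlr4, Cd14, Tnfaip3, Tnf and Nlrp3 had log2 fold changes between 0.94 and 1.86 with wide intervals, while Ly96, Myd88, Nfkb1 and Nfkbia lay between 0.07 and 0.16 with 95% intervals inside 2-fold, as for 46.3% of all genes tested. PP-MP 1 was above every control library for all 10 genes, PP-MP 2 for 8 and PP-MP 3 for 4. The same held for 32.9%, 27.8% and 27.5% of all genes tested, in that order. PP-MP 1 held the highest PP-MP value of 9 genes, whereas it held the highest PP-MP value of 34.5% of all genes tested.

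**Figure D1:**
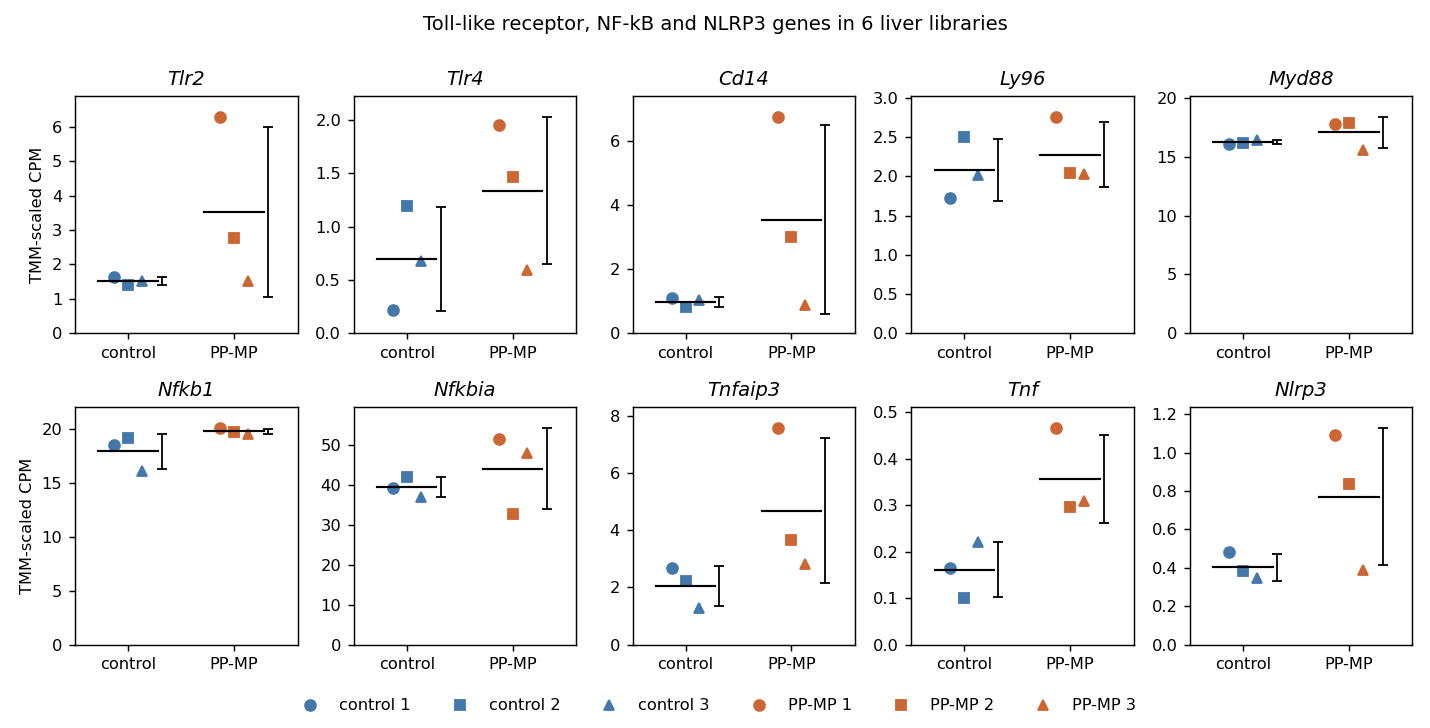
TMM-scaled CPM of each gene (vertical axes from 0, 1 scale per panel) in the 3 control and 3 PP-MP libraries; horizontal lines are group means and bars to their right are ± 1 SD. For Tlr2, Cd14 and Nlrp3 the PP-MP 3 library lies within or below the control values while PP-MP 1 and PP-MP 2 lie above them.

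Cd14, the surface protein that passes lipopolysaccharide to the TLR4 complex, had the largest difference of the 10. It was at 1.09, 0.813 and 1.03 CPM in control 1, 2 and 3 and at 6.76, 3.02 and 0.899 CPM in PP-MP 1, 2 and 3. PP-MP 1 and 2 were above all controls, and PP-MP 3 was inside the control range. On the log2 scale the fitted difference was 1.86 (SE 0.67, 95% interval 0.25 to 3.47, edgeR unadjusted p = 0.0297, adjusted p = 0.32; DESeq2 adjusted p = 0.0833). Without PP-MP 1 it was 0.998 (unadjusted p = 0.11).

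Tlr2, the receptor for bacterial lipoproteins, was at 1.63, 1.39 and 1.51 CPM in the controls and at 6.28, 2.77 and 1.52 CPM in PP-MP 1, 2 and 3. Controls were close together, and PP-MP 3 lay among them. PP-MP over control gave a log2 fold change of 1.22 (SE 0.51, 95% interval 0.01 to 2.43, edgeR unadjusted p = 0.0486, adjusted p = 0.36), and 0.50 without PP-MP 1 (unadjusted p = 0.19).

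Tlr4, the lipopolysaccharide receptor itself, was at 0.220, 1.19 and 0.679 CPM in the controls and at 1.95, 1.47 and 0.590 CPM in PP-MP 1, 2 and 3. These values rest on 16, 72 and 71 reads in control and 197, 134 and 61 reads in PP-MP, and the groups overlapped through PP-MP 3. Control 1 held the fewest reads. The log2 fold change was 0.94 (SE 0.68, 95% interval −0.67 to 2.56, edgeR adjusted p = 0.56). It was 0.55 without control 1, 1.58 without control 2 and 0.57 without PP-MP 1.

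Ly96, whose product MD-2 forms the lipopolysaccharide pocket with TLR4, did not share this pattern of values. It was at 1.72, 2.50 and 2.02 CPM in control and at 2.75, 2.04 and 2.03 CPM in PP-MP 1, 2 and 3. The groups overlapped, with PP-MP 1 the highest library. On the log2 scale the fitted difference was 0.13 (SE 0.26, 95% interval −0.48 to 0.74, edgeR adjusted p = 0.84), and −0.03 without PP-MP 1.

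Myd88, the adaptor of all Toll-like receptors except TLR3, was at 16.1, 16.2 and 16.4 CPM in control and at 17.8, 17.8 and 15.6 CPM in PP-MP 1, 2 and 3. PP-MP 3 was the lowest of all 6 libraries. PP-MP over control gave a log2 fold change of 0.07 (SE 0.13, 95% interval −0.23 to 0.37, edgeR adjusted p = 0.82). In GENCODE M21, 290 exonic bases of Myd88 lie opposite exons of Acaa1a, a peroxisomal thiolase gene with means of 451 ± 141 CPM (control) and 369 ± 128 CPM (PP-MP, SD, n = 3 per group). The sources used here do not state the strand setting of the counting, so some reads of Acaa1a could have been counted for Myd88. None of the other 9 genes shared exonic bases with another gene model there.

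Nfkb1, which encodes p105 and through it the p50 subunit, was at 18.6, 19.2 and 16.1 CPM in control and at 20.1, 19.8 and 19.6 CPM in PP-MP 1, 2 and 3. The groups did not overlap, but the gap between control 2 and PP-MP 3 was small, and the PP-MP libraries spanned 0.04 on the log2 scale. The log2 fold change was 0.14 (SE 0.13, 95% interval −0.16 to 0.45, edgeR adjusted p = 0.64).

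The feedback brakes Nfkbia and Tnfaip3 are both textbook NF-κB targets, and both carry a match to the κB consensus in the bases before their start, as does Tlr2. The stretches are shown because these 3 of the 4 genes with a match share the motif while their log2 fold changes were 0.16, 1.19 and 1.22. Nlrp3, also with a match, had 0.94, and Tnf and Myd88, without one, had 1.12 and 0.07. Promoters from RefSeq (GRCm38.p6) were matched by symbol for 6 of the 10 genes. The κB consensus was searched on both strands in the 250 bases before each start, and capitals mark the matches. The 3 stretches are chr12:55492648-55492897 (minus strand) for Nfkbia, chr10:19015411-19015660 (minus strand) for the upstream start of Tnfaip3, and chr3:83841609-83841858 (minus strand) for Tlr2, each written 5′ to 3′ along its gene.
Nfkbia: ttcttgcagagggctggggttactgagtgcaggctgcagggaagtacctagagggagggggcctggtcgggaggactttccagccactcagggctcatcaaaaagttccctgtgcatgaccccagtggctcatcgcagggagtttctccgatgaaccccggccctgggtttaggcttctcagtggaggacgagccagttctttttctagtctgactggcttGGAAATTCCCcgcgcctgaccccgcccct
Tnfaip3: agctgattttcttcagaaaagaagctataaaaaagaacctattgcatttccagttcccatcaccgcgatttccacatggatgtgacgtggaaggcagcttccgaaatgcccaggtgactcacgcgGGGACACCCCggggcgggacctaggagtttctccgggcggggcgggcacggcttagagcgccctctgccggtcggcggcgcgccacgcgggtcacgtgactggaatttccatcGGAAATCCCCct
Tlr2: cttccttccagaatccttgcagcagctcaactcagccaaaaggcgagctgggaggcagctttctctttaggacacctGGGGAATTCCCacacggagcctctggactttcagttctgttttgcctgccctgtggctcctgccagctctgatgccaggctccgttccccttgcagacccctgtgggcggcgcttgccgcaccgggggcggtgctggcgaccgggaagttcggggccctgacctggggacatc

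Nfkbia held 1 match, 29 to 20 bases before its start. Tnfaip3 held 2 before its upstream start, at 125 to 116 and 12 to 3 bases, and none before its other start; Tlr2 held 2 overlapping matches that together run from 173 to 163 bases. Nlrp3 held 1 match before 1 of its 2 starts, and the windows of Myd88 and Tnf held none, which says only that these letters are not in this window. Among all 32851 promoters of that table, 7.25% held a match, and 8.23% of its 27025 genes had a promoter with a match. A match is a description of the sequence and was not tested as a binding site.

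Nfkbia, which encodes IκBα, was at 39.3, 42.0 and 36.9 CPM in control and at 51.5, 32.6 and 48.1 CPM in PP-MP 1, 2 and 3. PP-MP 2 was the lowest of the 6 libraries and PP-MP 1 and 3 the highest. On the log2 scale the fitted difference was 0.16 (SE 0.19, 95% interval −0.30 to 0.62, edgeR adjusted p = 0.73), and 0.03 without PP-MP 1.

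Tnfaip3, which encodes the ubiquitin-editing enzyme A20, was at 2.66, 2.22 and 1.29 CPM in control and at 7.55, 3.67 and 2.80 CPM in PP-MP 1, 2 and 3. All PP-MP libraries lay above all controls, with PP-MP 3 close to control 1. PP-MP over control gave a log2 fold change of 1.19 (SE 0.45, 95% interval 0.10 to 2.27, edgeR unadjusted p = 0.0361, adjusted p = 0.34), and 0.65 without PP-MP 1 (unadjusted p = 0.13).

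Tnf, the cytokine that activated macrophages release, was at the edge of detection. It had 12, 6 and 23 reads in control and 47, 27 and 32 reads in PP-MP 1, 2 and 3, which is 0.165, 0.0995 and 0.220 CPM and 0.466, 0.296 and 0.309 CPM. The groups did not overlap. The log2 fold change was 1.12 (SE 0.45, 95% interval 0.03 to 2.20, edgeR unadjusted p = 0.0448, adjusted p = 0.35), and 0.88 without PP-MP 1 (unadjusted p = 0.16).

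Nlrp3, the sensor that assembles the caspase-1 inflammasome, had 35, 23 and 36 reads in control and 110, 76 and 40 reads in PP-MP 1, 2 and 3. That is 0.482, 0.382 and 0.344 CPM for the controls against 1.09, 0.834 and 0.387 CPM, with PP-MP 3 inside the control range. On the log2 scale the fitted difference was 0.94 (SE 0.44, 95% interval −0.12 to 1.99, edgeR unadjusted p = 0.0748, adjusted p = 0.41), and 0.60 without PP-MP 1.

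**Figure D2:**
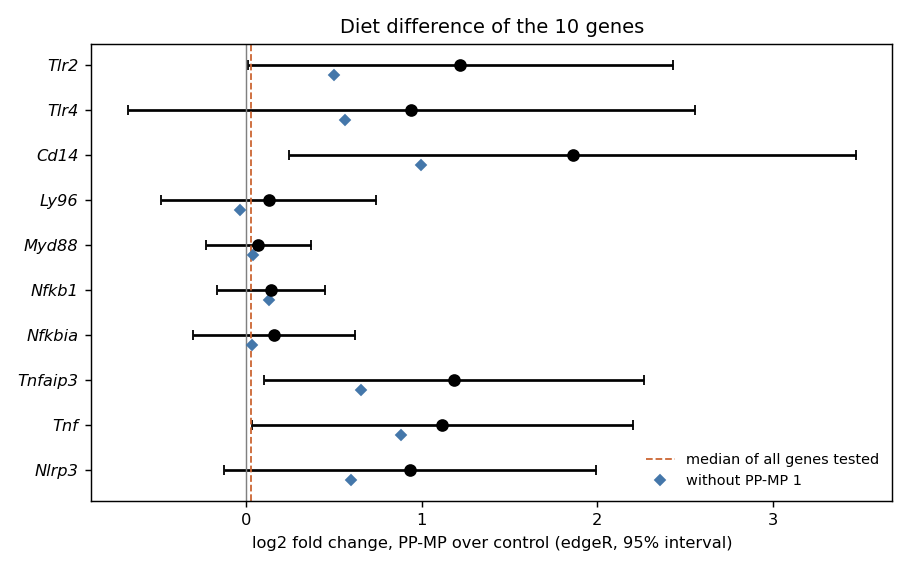
Log2 fold change of PP-MP over control (horizontal axis) for each of the 10 genes with its 95% interval from edgeR; diamonds are the values without PP-MP 1 and the dashed line is the median of all genes tested. The intervals of Ly96, Myd88, Nfkb1 and Nfkbia are narrow and include 0, and every diamond lies to the left of its main value.

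Per kilobase of exon, the levels of the 10 genes spanned a wide range with Nfkbia at the top. The length used was that of all annotated exons of a gene merged, not that of 1 transcript. It was 12.061 kb for Nfkb1 and 7.226 kb for Tnfaip3, and the order of the genes depends on this choice. In control the mean was 24.5 ± 1.59 CPM per kb for Nfkbia, 6.30 ± 0.0603 for Myd88, 2.04 ± 0.387 for Ly96 and 1.49 ± 0.135 for Nfkb1 (SD, n = 3). Cd14 (0.565 ± 0.0841), Tlr2 (0.501 ± 0.0385) and Tnfaip3 (0.285 ± 0.0967) followed in CPM per kb, and Tlr4 (0.126 ± 0.0877), Nlrp3 (0.0992 ± 0.0176) and Tnf (0.0986 ± 0.0368) were lowest. The control ranges of Cd14 and Tlr2 overlapped, and so did those of Tlr4, Nlrp3 and Tnf. In PP-MP, Cd14 was at 2.05 ± 1.71 CPM per kb, between Ly96 (2.23 ± 0.406) and Nfkb1 (1.64 ± 0.0213), with PP-MP 3 still at 0.519. Within the lipopolysaccharide complex, Tlr4 was thus far below its partner Ly96 per kilobase in both diets.

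Marker lists of other cells were summed in each library, and 0 of their genes passed the edgeR threshold. The lowest adjusted p was 0.27 among general macrophage markers and 0.18 among Kupffer cell markers. At an unadjusted p of 0.05, 8.05% of all genes were higher. The counts at this p were 3 of 6 macrophage, 5 of 8 Kupffer cell, 4 of 6 neutrophil and 0 of 6 monocyte markers. DESeq2 called 1, 2, 1 and 0 of them higher, against 2.39% of all genes. The summed level of 6 general macrophage markers (Adgre1, Csf1r, Cd68, Lyz2, Mertk, Cd163) was 68.3 to 81.0 CPM in the controls and 322, 166 and 86.2 CPM with PP-MP 1, 2 and 3, and 1 of the 6 was above all controls in every PP-MP library, a share to be read beside the 12.2% of all genes. Lyz2, the marker of this list that stood highest in PP-MP 3 over the controls, was left out after seeing the data. Such a choice by itself lowers PP-MP 3 relative to the controls. Without Lyz2 the PP-MP 3 sum was 45.0 CPM, within the control sums of 37.9 to 50.7 CPM. The sum of 8 Kupffer cell markers was 186 to 211 CPM in the controls and 624, 337 and 227 CPM with PP-MP, with 3 of 8 above all controls. Marco was left out by the same rule, also after seeing the data. Without it PP-MP 3 stood at 203 CPM, within the control sums of 184 to 207 CPM, and PP-MP 1 and 2 at 486 and 270 CPM. The 8 neutrophil markers summed to 1.501 to 2.16 CPM in the controls and 25.6, 5.53 and 3.10 CPM with PP-MP. Of 6 tested, 2 (S100a8 and S100a9) were above all controls in every PP-MP library, at 1.07 and 1.09 CPM in PP-MP 3. There Csf3r (0.706 CPM), Cxcr2 (0.0773 CPM) and Retnlg (0.155 CPM) were inside their control ranges, and Elane had 0 reads, below all controls. The defining markers Ly6g and Mpo had 0 reads in every control library and in PP-MP 3. The 6 monocyte or recruited macrophage markers summed to 3.50 to 6.09 CPM in the controls and 15.2, 5.14 and 2.85 CPM with PP-MP, with 0 of 6 above all controls. In bulk liver, more cells of a type and more RNA per cell cannot be told apart.

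The part of these cells in the results on the 10 genes was not tested. Ratios to the macrophage marker sum are given below as a description only. The sums of 5 other lists overlapped between the diets. Sinusoidal endothelial markers summed to 70.1 to 87.8 CPM in the controls and 69.1 to 116 CPM with PP-MP, stellate cell or fibroblast markers to 267 to 284 and 242 to 394 CPM, and cholangiocyte markers to 4.48 to 8.19 and 3.69 to 13.4 CPM. Dendritic cell markers summed to 1.13 to 3.04 and 1.32 to 2.86 CPM, and erythroid markers to 186 to 329 and 251 to 479 CPM. Hepatocyte markers, at 60824 to 77802 CPM in the controls and 65794 to 80384 CPM with PP-MP, fit the liver label. Alb made up most of that sum, and 3 of the 5 markers were fitted below 0. Apoa1 was at 1165, 1191 and 3693 CPM in the controls and at 9670, 3559 and 7457 CPM in PP-MP 1, 2 and 3. Its groups overlapped, and DESeq2 called it higher (adjusted p = 0.039) while edgeR did not (adjusted p = 0.30).

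**Figure D3:**
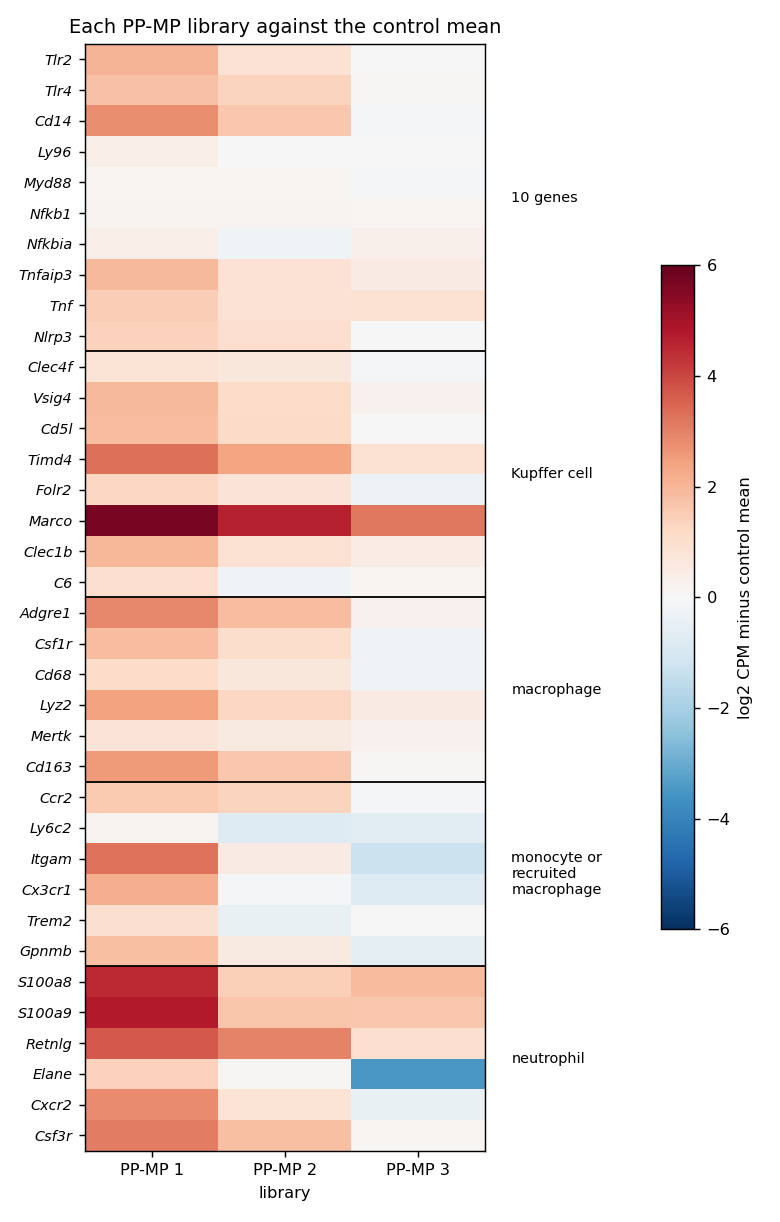
Difference in log2 CPM between each PP-MP library (columns) and the mean of the 3 controls, by colour, for the 10 genes and the tested markers of 4 blood-derived or resident immune cell lists (rows). The median difference of the 10 genes was 1.43, 0.86 and 0.03 in PP-MP 1, 2 and 3, and that of the general macrophage markers was 2.15, 1.15 and 0.16.

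Each gene was also set against the macrophage marker sum of the same library. Tlr2 amounted to 2.38%, 1.72% and 1.89% of that sum in the controls, against 1.95%, 1.67% and 1.76% for PP-MP 1, 2 and 3. Tlr4 amounted to 0.323%, 1.47% and 0.848% for the controls against 0.606%, 0.886% and 0.684%. Nlrp3 stood at 0.706%, 0.471% and 0.430% against 0.338%, 0.502% and 0.448%. These 3 genes overlapped between the diets by this measure.

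Tnfaip3 and Tnf overlapped as well, at 2.75% and 2.60% of the macrophage sum (control and PP-MP means) and at 0.213% and 0.227%. Cd14 was at 1.59%, 1.004% and 1.29% for the controls and at 2.10%, 1.82% and 1.04% in PP-MP 1, 2 and 3, so PP-MP 1 and 2 were above all controls and PP-MP 3 was inside their range. Ly96 and Myd88 were lower in every PP-MP library by this measure, for Myd88 at 19.99% to 23.6% in control and 5.52% to 18.1% in PP-MP. Of the 10 genes 0 were above and 2 below control in every PP-MP library by this measure, against 0.509% and 32.9% of all genes tested. The measure divides by a sum that was higher in all PP-MP libraries, which moves every gene down there, so these counts say nothing particular about the 10 genes, and no test was run on it.

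**Figure D4:**
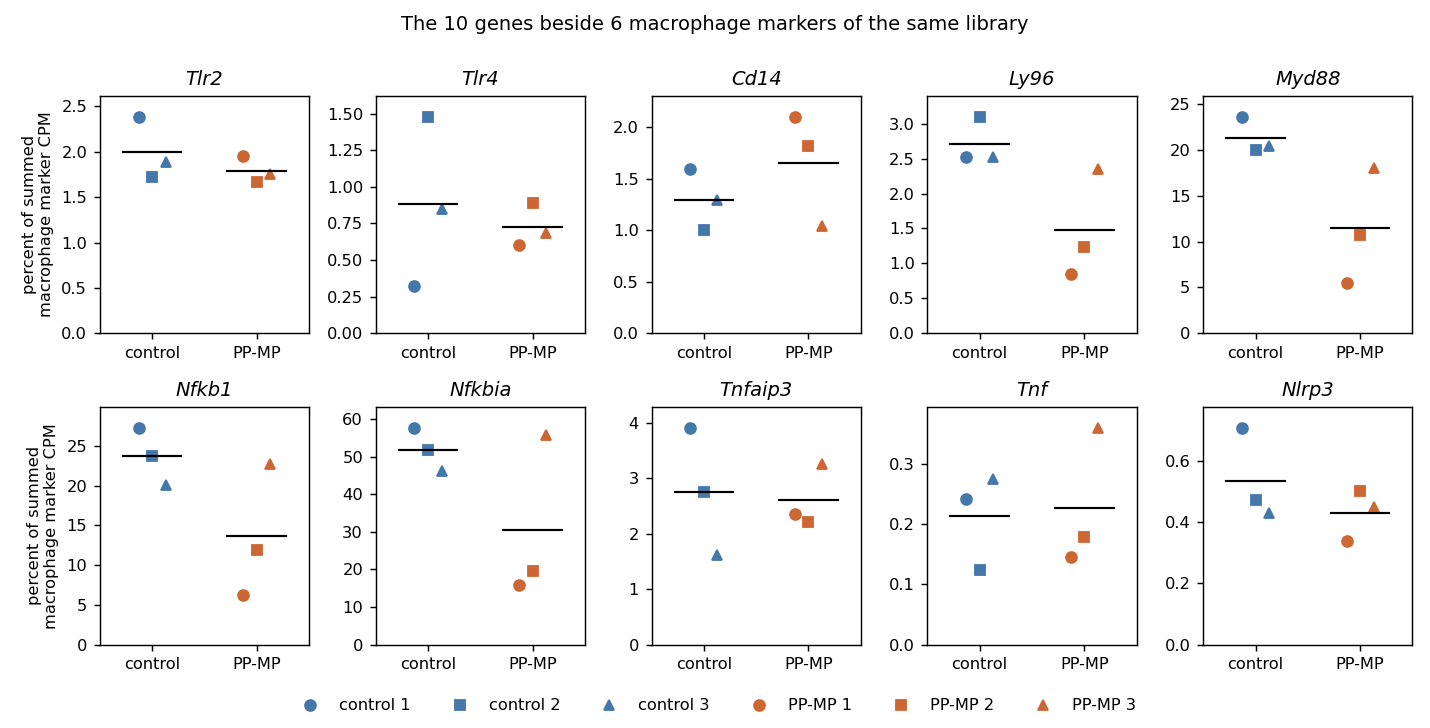
Each gene's CPM as a percent of the summed CPM of 6 macrophage markers in the same library (vertical axes from 0), with group means as lines. Tlr2, Nlrp3, Tnfaip3 and Tnf overlap between the diets, and the PP-MP libraries of Ly96 and Myd88 all lie below the controls.

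The rest of the pathway was examined through 93 further genes by role, of which 87 were tested. With edgeR 0 of them passed the threshold, while 12 were higher and 3 lower at an unadjusted p of 0.05, against 8.05% and 5.81% of all genes. Their median log2 fold change was 0.28. PP-MP 1 was the highest PP-MP library for 59 of the 87, against 34.5% of all genes tested. Without PP-MP 1, 6 of 85 were higher, near the 5.77% of all genes in that setting, and the median was 0.04. Without control 1, 4 of 90 were higher, against 6.53% of all genes, and without control 3, 8 of 88, against 5.7%. Without control 2, 18 of 90 were higher (13% of all genes), without PP-MP 2, 10 of 87 (5.52%), and without PP-MP 3, 21 of 88 (7.31%). DESeq2 gave an adjusted p under 0.05 to 5 of the 87, all higher, against 2.39% of all genes: Nfkbiz, Zc3h12a, Irak3, Nlrp12 and Cxcl1.

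Among brakes, 5 of 16 were higher at an unadjusted p of 0.05 and 0 lower. The counts of each role are read beside the same 8.05% and 5.81% of all genes, and with so few genes a role, 1 or 2 are near those shares. Nfkbiz, which encodes the nuclear inhibitor and co-factor IκBζ, was at 3.53, 5.91 and 3.62 CPM in control and at 16.3, 11.1 and 9.21 CPM in PP-MP 1, 2 and 3. All PP-MP libraries were above all controls (log2 fold change 1.49, SE 0.31, edgeR adjusted p = 0.19, DESeq2 adjusted p = 0.0012). Zc3h12a, an RNase that degrades cytokine mRNAs, had means of 1.42 ± 0.123 CPM (control) and 3.36 ± 1.41 CPM (PP-MP, SD, n = 3 per group). Irak3, an inhibitory kinase homologue of macrophages, was at 0.758, 0.581 and 0.660 CPM against 8.73, 2.73 and 0.986 CPM. Exons of Irak3 lie opposite those of Tmbim4, so its counts are uncertain.

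Of 10 genes tested in the list of other Toll-like receptors, which includes the related receptor Cd180, 2 were higher and 1 lower at an unadjusted p of 0.05. Tlr8, an endosomal sensor of RNA, had means of 0.167 ± 0.0922 CPM (control) and 0.918 ± 0.798 CPM (PP-MP), and Tlr13, a sensor of bacterial ribosomal RNA, at 0.711 ± 0.252 and 2.17 ± 1.52 CPM (SD, n = 3 per group). Tlr5, the flagellin receptor, had the opposite sign, at 2.51, 4.46 and 8.94 CPM in the controls against 1.95, 2.79 and 2.34 CPM, with overlapping groups. Each missed the edgeR threshold, with adjusted p of 0.30, 0.31 and 0.35.

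Adaptors and kinases were centred near 0 (median of 0.03 on the log2 scale, 18 genes tested), with 1 at an unadjusted p of 0.05. That gene was Tbk1, a kinase of the TRIF branch, whose control mean was 16.7 ± 1.22 CPM and PP-MP mean 21.1 ± 0.596 CPM (SD, n = 3 per group). Its log2 fold change was 0.34 (SE 0.12, edgeR adjusted p = 0.33). Ikbke, its close relative, was at 2.66 ± 1.499 and 8.33 ± 5.73 CPM with overlapping groups, and its exons lie opposite other gene models. Tab2, which links TRAF6 to TAK1, was at 45.7 ± 9.63 and 37.3 ± 1.33 CPM. None of the 4 other NF-κB subunit genes passed an unadjusted p of 0.05; Rela, the p65 subunit, was lower in every PP-MP library (as were 9.79% of all genes), at 41.7 ± 4.78 and 34.3 ± 3.22 CPM, while Rel (log2 fold change 0.18) and Relb (0.13) overlapped.

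For ligand delivery, 0 of 4 genes passed an unadjusted p of 0.05. Lbp, the plasma protein that extracts lipopolysaccharide for CD14, was at 132, 93.4 and 127 CPM in control and at 363, 123 and 120 CPM in PP-MP 1, 2 and 3, so that PP-MP 1 alone stood out. Ly86, the partner of the receptor RP105, was at 1.86 ± 0.728 and 4.36 ± 2.82 CPM, and the scavenger receptor Cd36 at 106 ± 29.0 and 77.5 ± 28.4 CPM (SD, n = 3 per group). Among the genes of TNF receptors and their signalling partners, Traf2 was lower in every PP-MP library, as were 9.79% of all genes. It was at 10.4 ± 0.701 and 8.13 ± 0.684 CPM (edgeR unadjusted p = 0.0484, adjusted p = 0.36). Tradd, another partner, and the receptor gene Tnfrsf1b had log2 fold changes of −0.20 and 0.10.

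The 16 inflammasome genes tested had a median of 0.66 on the log2 scale, with 14 of them fitted above 0, against 52.6% of all genes, and 2 higher at an unadjusted p of 0.05, against 8.05%. Nlrp12 was at 31.7, 15.97 and 19.7 CPM in control and at 77.4, 65.8 and 46.5 CPM in PP-MP 1, 2 and 3, without overlap (log2 fold change 1.49, SE 0.31, edgeR adjusted p = 0.19). Its annotated exons overlap those of several microRNA genes, so its counts are uncertain. Il1b, the cytokine that caspase-1 matures, was at 0.0964, 0.663 and 0.354 CPM in control and at 2.92, 1.59 and 0.638 CPM in PP-MP, with PP-MP 3 inside the control range. Naip5, a flagellin sensor with close paralogues, had group means of 0.954 ± 0.496 and 2.49 ± 1.54 CPM (SD, n = 3 per group).

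Of 18 NF-κB target genes 14 were tested, and 2 were higher and 1 lower at an unadjusted p of 0.05. Cxcl1, a neutrophil-attracting chemokine, was at 1.35, 1.51 and 1.79 CPM in control and at 45.7, 4.70 and 2.78 CPM in PP-MP 1, 2 and 3, without overlap (log2 fold change 3.51, SE 1.09, edgeR adjusted p = 0.28, DESeq2 adjusted p = 0.0033). Ccl3, a macrophage chemokine, was at 0.131 ± 0.0194 and 0.298 ± 0.0925 CPM, and Sod2, the mitochondrial superoxide dismutase, had the opposite sign at 186 ± 12.5 and 142 ± 14.2 CPM (SD, n = 3 per group). Il6 had 0 reads in all 6 libraries, and Sele, Ptgs2 and Cxcl2 were too low to be tested, Sele with 14 reads in PP-MP 1 and 0 elsewhere.

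**Figure D5:**
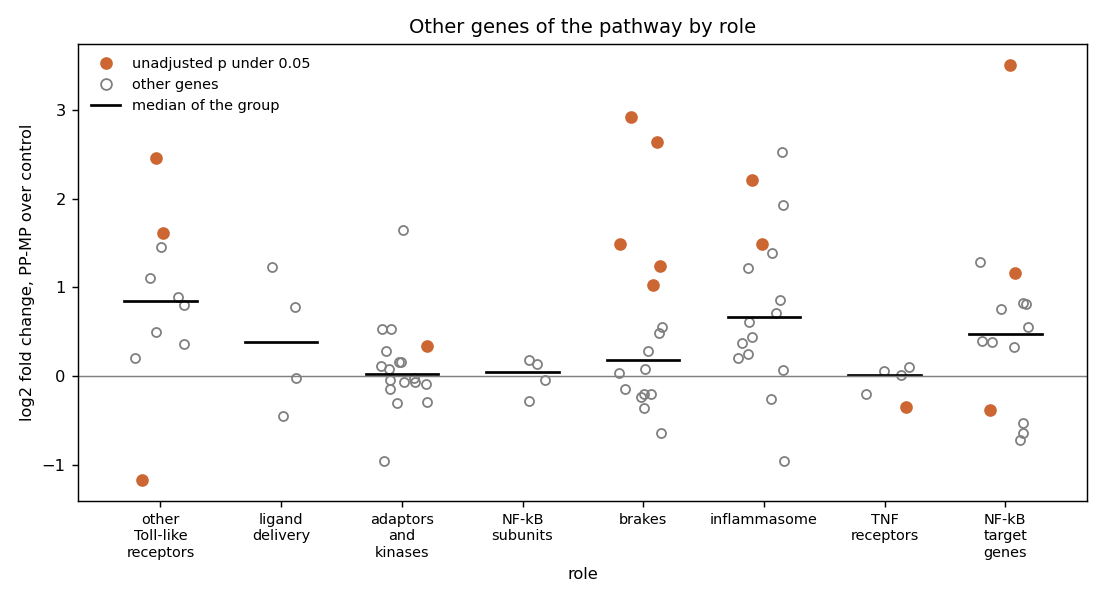
Log2 fold change of PP-MP over control (vertical axis) for 87 further pathway genes, grouped by role along the horizontal axis; filled points had an unadjusted edgeR p under 0.05 and lines are group medians. The medians were 0.85 for other Toll-like receptors (with the related Cd180), 0.66 for inflammasome genes and 0.03 for adaptors and kinases.

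Genes with the most similar profile over the 6 libraries were sought for the 3 genes of smallest p, after each log2 CPM profile was centred and scaled to an SD of 1. For Cd14, the closest among 11108 candidate genes were Ezh1, a Polycomb methyltransferase, Fgr, a myeloid kinase, and C1qa, a complement gene of macrophages, at root mean square distances of 0.0555, 0.0580 and 0.0959. Scaling removes size, since the log2 fold change was 0.23 for Ezh1, 1.46 for Fgr and 0.81 for C1qa. For Tnfaip3 they were Mturn, Stard13 and Nhsl1 (distances 0.115, 0.125 and 0.141), and for Tnf they were Nupl2, Mmd2 and Mat1a (0.0942, 0.111 and 0.165). These distances describe 6 libraries only.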

How the data were processed

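Liver poly(A) RNA of 6 samples was sequenced from directional libraries, per the labels' protocols. The deposited values are raw read counts per gene, and the 6 per-sample files hold the same values as the columns of the table. The submitters' processing notes name bcl2fastq and the build GRCm39. The sources used here give no aligner, counting tool, strand setting or annotation. Genes were filtered with filterByExpr, and their counts were scaled with TMM and tested with the robust quasi-likelihood test of edgeR (version 4.0.16, R 4.3.3). P-values were two-sided, adjusted by Benjamini-Hochberg over the 18284 genes tested, and the threshold was 0.05. DESeq2 1.42.0 and limma-voom (limma 3.58.1) were alternatives. CPM values use counts divided by library total times TMM factor, and log2 CPM a prior count of 2. Standard errors and 95% intervals come from the edgeR fit. The comparison was unpaired.

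The 10 genes, the 93 further pathway genes and the marker lists were chosen with earlier results of these data known, so no p-value is adjusted over a list alone. In each role, the 3 pathway genes of smallest p are named, a rule that takes in the 5 that DESeq2 called. The genes too low to test were named after their values were seen. Similar profiles were sought for the 3 of smallest p, among tested genes averaging 1 CPM or more, without predicted models and pseudogenes. Exonic lengths and overlaps come from GENCODE M21 (GRCm38), used for gene properties only, and promoters from RefSeq, with their own build given. The fit was tested on simulated data with known changes. Alternatives were other scalings (DESeq2 size factors, library totals), no filter and a mean CPM filter, the 2 other tools, a replicate block, the data without mitochondrial, haemoglobin and 18S genes, each library left out, control 2 and PP-MP 1 left out together, and a threshold of 0.1.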

Additional observations from a re-analysis of the deposited data

How the results depend on the processing

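The log2 fold changes of the 10 genes were recomputed in 148 combinations of gene and alternative, and 147 kept direction and side of the threshold; Ly96 turned to −0.0311 without PP-MP 1, and ranged from −0.0311 to 0.30 with 1 library left out. The lowest adjusted p of any of the 10 was 0.0833 (Cd14, DESeq2 test), and 0 of the 10 passed the threshold in any setting, the threshold of 0.1 with edgeR included. Their median log2 fold change was 0.53 without PP-MP 1, 1.23 without PP-MP 3 and 0.51 without control 2 and PP-MP 1. Counts at an unadjusted p of 0.05 follow, with the share of all genes that were higher in the same setting in parentheses. Of the 10, 0 passed without PP-MP 1 (5.77%), without control 2 (13%) or without both (10.4%). It was 1 without control 1 (6.53%) or without control 3 (5.7%), 2 without PP-MP 2 (5.52%) and 4 without PP-MP 3 (7.31%). The count was 6 with library totals (16.8%), 3 with DESeq2 (9.07%), 1 with limma-voom (9.63%) and 1 with the replicate block (6.01%). Library totals shift all genes upwards, to a median of 0.26 over all genes, against 0.03 with TMM. With the mean CPM filter Tnf and Nlrp3 were not tested. Over all genes edgeR called 2; library totals gave 1, limma-voom 1, the replicate block 0 and the DESeq2 test 777, and 0 to 92 were called with 1 library left out, 92 without control 2. DESeq2 called 5 of the further pathway genes. The cause of these differences was not tested. Same-numbered libraries correlated at −0.0662, −0.0872 and 0.047 in their deviations from group means, which does not pair them. Depth limits Tnf, Nlrp3 and Tlr4 most, with 6, 23 and 16 reads in the lowest library.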

Other observations

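Lymphocyte markers did not share the direction of the macrophage markers. Cd3e, Cd3d and Trac, parts of the T cell receptor complex, had all PP-MP values below all control values, as did 9.79% of all genes. Trac was at 1.43, 1.53 and 1.22 CPM in control and at 0.812, 0.659 and 0.880 CPM in PP-MP 1, 2 and 3 (log2 fold change −0.83, SE 0.26, edgeR adjusted p = 0.28). The 5 T or NK cell markers summed to 3.83 to 5.03 CPM in control and 2.41 to 3.01 CPM in PP-MP. Klrb1c, an NK cell receptor, was however higher in every PP-MP library, as were 12.2% of all genes (log2 fold change 0.66, edgeR adjusted p = 0.46). The 4 B or plasma cell markers all had fitted values below 0, while 52.6% of all genes were fitted above 0. Their sums were 17.4 to 52.8 CPM in control and 6.53 to 47.2 CPM in PP-MP. Jchain, 1 of the 4, was higher in PP-MP 1 (42.4 CPM) than in any control (at most 40.3 CPM). None of these genes passed the threshold.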
